A study of Mus musculus with 16 samples.

Results

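The genes described here encode the protein factors that start and extend translation in the cytosol. They were chosen by name: every protein-coding row whose mouse symbol begins with Eif and a digit, or with Eef1 or Eef2, and does not carry the pseudogene ending -ps. The rule found 68 of the 53379 genes in the table. Pseudogenes and noncoding genes with the same symbol roots, 9 in number, were left out. The rule itself reads symbols only.

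Initiation factors bring the initiator tRNA and the mRNA to the small ribosomal subunit. The ternary complex of eIF2, GTP and initiator tRNA joins with eIF1, eIF1A, eIF3 and eIF5, the cap-binding complex of eIF4E, eIF4G and eIF4A recruits the mRNA, and eIF5B joins the large subunit. Elongation factor eEF1 then delivers each aminoacyl-tRNA, eEF2 moves the ribosome along, and eIF5A relieves stalls. Many of these mRNAs, such as those of the elongation factors, belong to the TOP class, which begins with a 5′ terminal oligopyrimidine tract and is translated under the control of mTOR.

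RNA was measured in male mouse embryonic stem cells (mESC) crosslinked with formaldehyde (fRIP) or with UV light (UV-RIP), after immunoprecipitation of the transcription factor Sox2 (IP) and in the matching input. UV light joins protein to RNA in direct contact, whereas formaldehyde also joins proteins to each other. There were 4 groups of 4 libraries, numbered as replicates 3 to 6 in the labels: fRIP IP, fRIP input, UV-RIP IP and UV-RIP input. All 4 groups came from cells on gelatin in serum medium with LIF at 1000 U/mL, PD0325901 (a MEK inhibitor) at 1 uM and CHIR99021 (a GSK3 inhibitor) at 3 uM. The age and passage of the cells and any allele of the line are not given in the sources used here. IP and input of one number came from the same lysate, and the 8 plates of cells were separate, so crosslinker and plates cannot be told apart. No IP with a control antibody is among the 16 libraries, so every fold change is relative to input. The libraries are of bulk cells, in which fewer cells holding an RNA and less RNA per cell cannot be told apart.

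The values are counts of unique molecular identifiers (UMIs), each of which marks an original RNA fragment, on whole gene bodies with introns. Totals lay between 12456298 and 21211537 UMIs per library. Levels are given as CPM, the UMIs of a gene per 1000000 UMIs of the library. Of the naive pluripotency markers, 12 of 13 averaged at least 10 UMIs, with summed levels of 2503 to 4819 CPM, and Sox2 itself was listed at 0 in every library. The western blots of the study detected Sox2 protein in lysate of these cells, so a listed 0 does not show that a gene is silent. The 12 differentiation markers summed to between 10.1 and 15.8 CPM, with Sox1 at 0 in every group, and the 7 fibroblast feeder markers to between 2.92 and 8.96 CPM. The input of fRIP replicate 4 stood apart with 2.81% of its UMIs on miscellaneous RNA genes, while its share was 0.349% to 0.62% in inputs 3, 5 and 6. The loci Gm26917 and Gm42418 held 20.5% to 24.7% of the UMIs in the UV-RIP IP libraries and 13.7% to 14% in the UV-RIP inputs. The IP of fRIP replicate 5 also stood apart, with 14.4% of its UMIs on these loci, against 6.33% to 7.82% in the other fRIP IP libraries and 6.49% to 10% in the fRIP inputs. Its chi-square per degree of freedom against the other fRIP IP libraries was 57.8 to 91.9, while those differed from each other by 7.36 to 8.59.

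Of the 68 genes, 64 had 3 or more UMIs in at least 1 library and were tested, and 59 averaged at least 100 UMIs per library. The other 4 had no UMI in any library. These were Eif4ebp3 (an eIF4E-binding protein), Eif4e3 (a cap-binding protein of the eIF4E family), and Eef1akmt2 and Eef1akmt4 (lysine methyltransferases of eEF1A). In GENCODE vM21 the bodies of Eif4ebp3, Eif4e3 and Eef1akmt2 are overlapped over 100% of their length by other genes on the same strand, and that of Eef1akmt4 over 99.8%. Eif2s2, Eif3m and Eif4enif1, which are overlapped over their whole length on the opposite strand, held 89030, 14383 and 30507 UMIs in all over the 16 libraries. The strand setting of the counting is not given in the sources used here. Whether the 4 genes at 0 are silent cannot be read from these counts.

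The start of a TOP mRNA is a run of C and T bases, so the sequences around the annotated starts of a few members are shown beside the values below. Which genes are of the TOP class is textbook knowledge and was not read from these windows. The windows are from RefSeq on GRCm38.p6, which held at least 1 start for 52 of the 68 genes. The search took an unbroken run of C or T, of any order, from 30 bases before to 50 bases after the start, on the strand of the gene. Where a gene had several annotated starts, the start with the longest run was kept, for members and all genes alike. Each line gives 30 bases, 5′ to 3′, with the longest run in capitals. Eif3f, Eef2, Eef1a1 and Eef1b2 are of the TOP class and were depleted or lower in the fRIP IP, Eif2s3y was among the most depleted genes, and Eif4g3 was the enriched one.
Eif3f, chr7:108934402-108934431, plus strand: tgttctaggCTCTCTCTCTTTCTCggcaag
Eef2, chr10:81176636-81176665, plus strand: cgtcagcggTCTCTTCCgccgcagccgccg
Eef1a1, chr9:78481709-78481738, minus strand: ctggctccgCCCTCTTCCCgagggtggggg
Eef1b2, chr1:63176851-63176880, plus strand: tgcgtccgagcgCTTTCgttcaactccggc
Eif2s3y, chrY:1010587-1010616, plus strand: ccacagccaCTTCCTTCTTTCgtgagcaag
Eif4g3, chr4:137993435-137993464, plus strand: gccgaaaagCTCCgagcggccgtcctgccg
The run of Eif3f was 15 bases long and spanned the annotated start, that of Eef2 was 8 bases long and began at base 15 of the transcript. That of Eef1a1 had 10 bases and began 5 bases before the start. The longest run of Eef1b2, 5 bases beginning at base 33, is no tract at the start, and that of Eif4g3 had 4 bases. A run of 8 or more was found for 19 of the 52 genes (36.5%), against 32.3% of all 27025 genes with a window. Among members that had a window, such a run was found for 8 of the 19 depleted in fRIP and for 9 of the 31 tested and not depleted. These are matches of letters in a window and say nothing on the start that the cells used.

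The first comparison asks which of these RNAs were held with Sox2 under formaldehyde. In fRIP the translation factor genes were mostly lower in the IP than in the input. Depletion here means a fold change below 1 / 1.5 with a Benjamini-Hochberg adjusted p below 0.05 in edgeR's quasi-likelihood test, over the 22936 genes tested, and enrichment is its mirror. By this rule 24 of the 64 tested members were depleted (10.7% of all genes tested) and 1 was enriched (8.8% of all genes tested). The median log2 fold change of the 64 was -0.52, against -0.03 for all genes tested and -0.07 for those averaging at least 100 UMIs. All 24 depleted members were lower in the IP in 4 of 4 pairs, and for 23 of them the IP and input values did not overlap. Both are usual for depleted genes: of all 2448, 96.7% were lower in 4 of 4 pairs and 89.3% had no overlap. By adjusted p alone, 44 members were lower (21.9% of all genes tested) and 2 were higher, Eif4g3 and Eif2ak4 (4036 of the 22936 genes tested). Of the 10208 genes averaging at least 100 UMIs, as 59 members do, 1576 were depleted and 1172 enriched. Of the same genes, 3918 were lower and 2977 higher by adjusted p alone. These shares are larger than those over all genes tested. Without the pair of replicate 4, 25 members were depleted and the median was -0.49. Without that of replicate 5, 24 were depleted, 21 of them as before, and the median was -0.51. The members just inside and just outside the fold limit were Eif4g2 at -0.61 and Eif5b at -0.58.

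The 68 genes together held 0.967% to 1.09% of all UMIs in the fRIP IP libraries and 1.34% to 1.73% in the fRIP inputs, with no overlap. In UV-RIP their share was 0.794% to 0.861% in the IP and 0.914% to 0.977% in the input. Once Gm26917 and Gm42418 were taken out of the totals, the share was 1.04% to 1.26% in the fRIP IP and 1.44% to 1.85% in its input. The UV-RIP ranges then overlapped, at 1.02% to 1.13% in the IP and 1.06% to 1.14% in the input, although the IP was below its own input in 4 of 4 pairs. Eef1a1 and Eef2 together made up between 18.4% and 27.7% of these UMIs in a library.

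**Figure D1:**
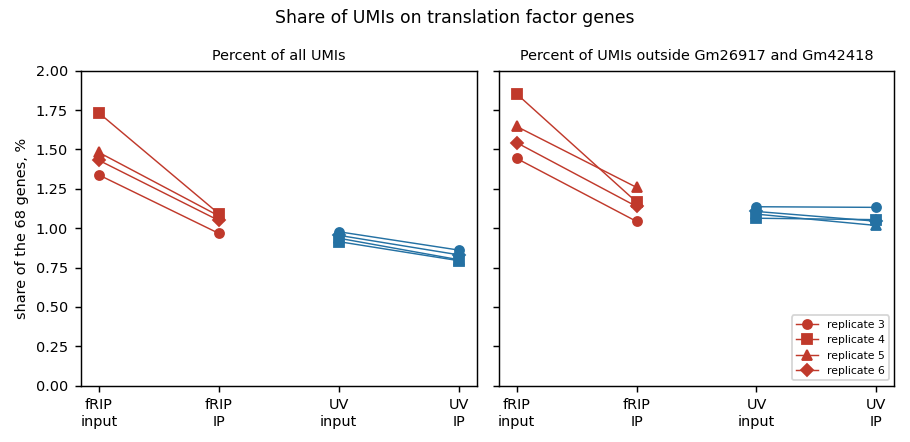
Percent of UMIs on the 68 translation factor genes (vertical axis) in each library, with the IP and input of one lysate joined by a line, in fRIP (red) and UV-RIP (blue). On the left, the share of all UMIs falls from input to IP in all 8 pairs. On the right, without Gm26917 and Gm42418, the fRIP shares of 1.44% to 1.85% still lie above 1.04% to 1.26%, and the UV-RIP ranges overlap, with each IP still below its own input.

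eIF2 carries the initiator tRNA, and all 4 genes of its subunits were depleted in fRIP (10.7% of all genes tested), at log2 fold changes from -0.96 to -0.73. Eif2s1 encodes the alpha subunit, whose phosphorylation slows initiation under stress. It had 77.7, 86.4, 64.2 and 75.4 CPM in the fRIP IP of replicates 3, 4, 5 and 6, and 125, 162, 126 and 134 in their inputs. Every IP value lay below every input value, and the log2 fold change was -0.85 (SE, the standard error, 0.08, adjusted p = 6.96e-09 by edgeR's quasi-likelihood test). Eif2s2, the beta subunit, had 309, 312, 239 and 302 CPM in the IP and 468, 550, 432 and 474 in the input. Again the groups did not overlap, with a log2 fold change of -0.73 (SE 0.07, adjusted p = 2.89e-08 by edgeR). The gamma subunit is encoded by a pair of near-identical genes on the sex chromosomes, Eif2s3x and Eif2s3y, between which only uniquely mapped reads can be assigned, so their values are less certain. Eif2s3y (chromosome Y, 1010543 to 1028847 on GRCm38) had 12.7, 14.8, 7.97 and 12.4 CPM in the IP and 23.4, 28.0, 19.8 and 20.6 in the input. All IP values were below all input values, with a log2 fold change of -0.96 (SE 0.10) beside -0.87 for Eif2s3x.

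Other carriers and regulators of the initiator tRNA varied more. Eif2a, which can deliver the initiator tRNA without GTP, was depleted at -0.67, whereas Eif2d was at -0.22 and not past the fold limit. Of the 5 genes of eIF2B, the factor that reloads eIF2 with GTP, 1 was depleted (Eif2b1, -0.66), beside 10.7% of all genes tested. By adjusted p alone 4 of the eIF2B genes were lower, beside 21.9%. Eif2b3, the longest of them at 67.9 kb, was at -0.04. None of the 4 kinases that phosphorylate eIF2 alpha was depleted, and none was lower by adjusted p alone. Their gene bodies are 30 kb or longer, a class in which 3.12% of all genes were depleted, so none of 4 is near that share. The log2 fold changes of the kinase genes ran from -0.15 for Eif2ak2, the kinase activated by double-stranded RNA, to 0.32 for Eif2ak4 (Gcn2), the kinase that senses uncharged tRNA. Eif2ak4 had 97.1, 110, 94.7 and 105 CPM in the fRIP IP and 84.6, 73.4, 81.9 and 85.8 in the input. Its IP and input values did not overlap, and the rise was below the fold limit (adjusted p = 0.00263 by edgeR's quasi-likelihood test). Its gene body is 86.6 kb long.

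eIF3 is the large scaffold of the small ribosomal subunit during initiation. Of its 14 tested genes, 8 were depleted in fRIP (10.7% of all genes tested), while 13 were lower by adjusted p alone (21.9%). Eif3e had 94.8, 100, 68.1 and 97.1 CPM in the fRIP IP and 157, 232, 156 and 170 in the input. The highest input value was that of replicate 4, the lowest IP value that of replicate 5, and the groups did not overlap. The log2 fold change was -0.99 (SE 0.09, adjusted p = 4.21e-09 by edgeR). Eif3a, the largest subunit and part of the core, had 326, 357, 338 and 328 CPM in the IP and 553, 600, 528 and 541 in the input. These groups were also apart, at -0.72 (SE 0.07). Eif3m (-0.93), Eif3k (-0.87), Eif3i (-0.79), Eif3g (-0.69) and Eif3f (-0.62) were depleted as well. Eif3j2, a near copy of Eif3j1, was counted as depleted at -0.92 with a mean of 9.81 UMIs per library and overlapping groups. Eif3h, whose 79.0 kb gene body is the longest of the family, was at -0.02 with overlapping groups (adjusted p = 0.89).

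The factors of start codon selection and subunit joining were lower throughout. All 7 passed by adjusted p alone (21.9% of all genes tested were lower) and 4 were depleted (10.7%). Eif1ax, a form of eIF1A that stabilises the scanning complex, had 26.3, 25.8, 21.7 and 24.3 CPM in the fRIP IP and 45.4, 54.3, 42.2 and 48.7 in the input. The groups did not overlap, and the log2 fold change was -0.96 (SE 0.09, adjusted p = 4.75e-09 by edgeR). Eif1, which keeps the complex from choosing a wrong start codon, had 58.4, 72.0, 63.7 and 65.4 CPM in the IP and 102, 140, 112 and 103 in the input. It was lower in every pair, at -0.81 (SE 0.08). Eif6, which keeps free large subunits from joining, was at -0.68, and Eif1b was at -0.65. Eif5b (-0.58), Eif1a (-0.53) and Eif5 (-0.52), the GTPase-activating partner of eIF2, fell within the fold limit. Eif1ad, a protein with an eIF1A-like domain, was at -0.56.

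Members that recruit the capped mRNA did not move together. Eif4a1, the RNA helicase of the cap-binding complex, had 287, 326, 337 and 320 CPM in the fRIP IP and 456, 848, 544 and 464 in the input. The input of replicate 4 was far above the others, and the groups did not overlap. Its log2 fold change was -0.82 (SE 0.10, adjusted p = 3.48e-07 by edgeR), and Eif4a3, a core protein of the exon junction complex, and Eif4a2 were at -0.53 and -0.51. Of the helicase cofactors, Eif4b was at -0.29 and Eif4h at -0.07. Eif4e, the cap-binding protein itself, had 102, 95.5, 67.8 and 88.8 CPM in the IP and 99.8, 86.3, 82.3 and 95.8 in the input. Its groups overlapped, and the log2 fold change of -0.05 (SE 0.08) did not pass the test (adjusted p = 0.683 by edgeR). The genes of the proteins that bind eIF4E, Eif4ebp1 (0.11), Eif4ebp2 (0.13) and Eif4enif1 (-0.12), did not pass it either.

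The 3 genes of the eIF4G scaffold family took 3 different courses. Eif4g3 was the enriched member, with 312, 305, 278 and 292 CPM in the fRIP IP and 202, 148, 181 and 190 in the input. Every IP value was above every input value, and the log2 fold change was 0.73 (SE 0.08, adjusted p = 1.22e-07 by edgeR's quasi-likelihood test). Its gene body on chromosome 4 (137993022 to 138208508, plus strand, GRCm38) spans 215 kb and is the longest of the 64. Eif4g1, the main scaffold between eIF4E and eIF3, had 629, 717, 765 and 659 CPM in the IP and 700, 761, 806 and 729 in the input. It was lower in 4 of 4 pairs by a small amount with overlapping groups, at -0.12 (SE 0.07, adjusted p = 0.215 by edgeR). Eif4g2, a relative that lacks the eIF4E-binding part, was depleted at -0.61.

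**Figure D2:**
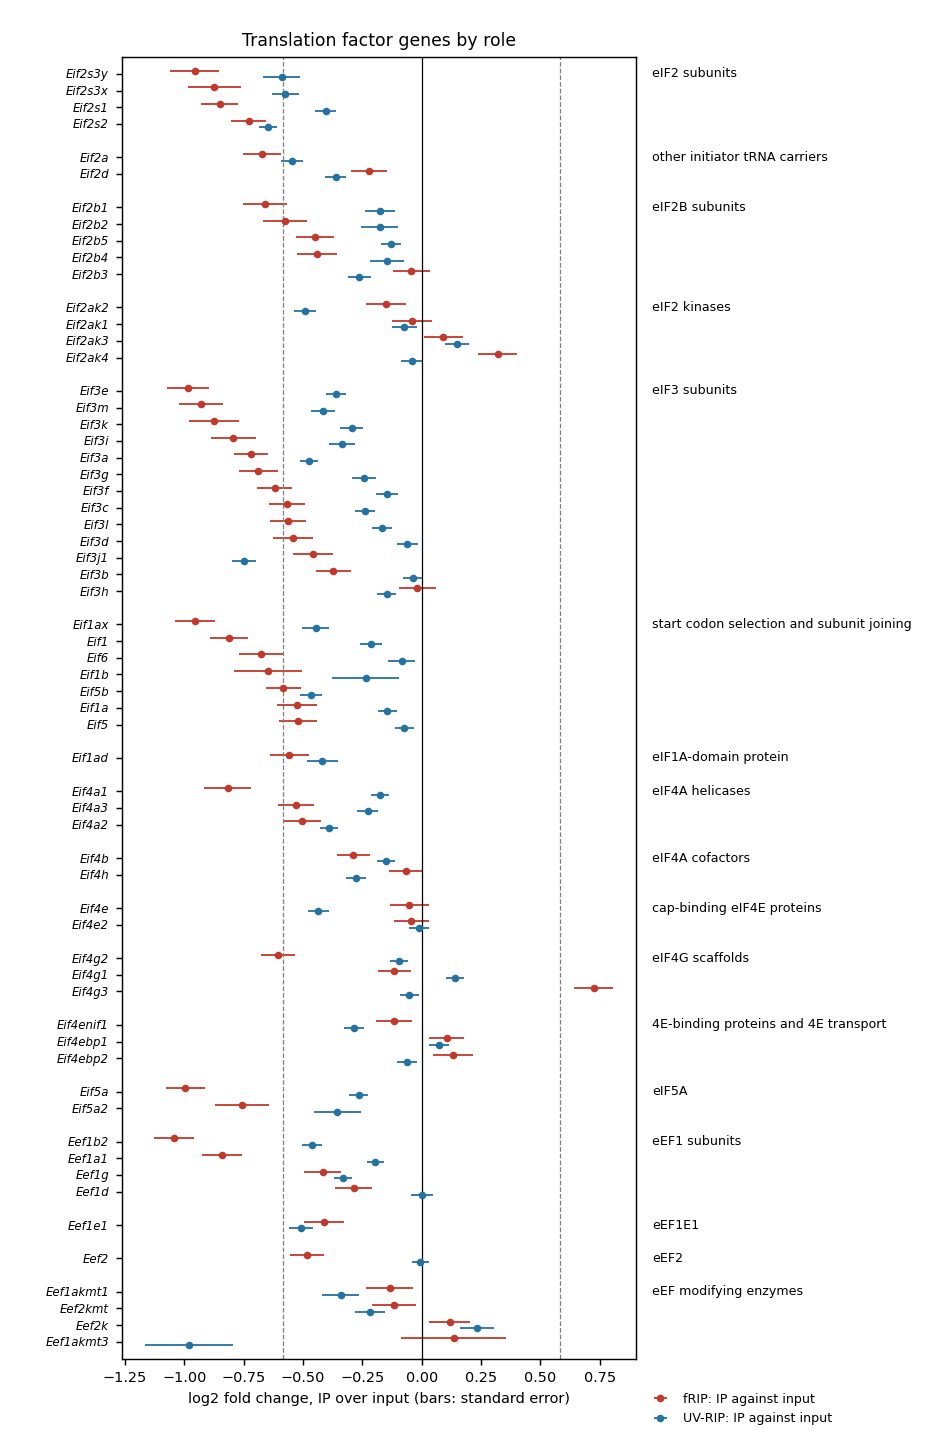
Log2 fold change of IP over input (horizontal axis, points with standard errors as bars) in fRIP (red) and UV-RIP (blue) for the 61 translation factor genes averaging at least 10 UMIs per library, grouped by role. The dashed lines mark a fold of 1.5 in each direction. Red points of the eIF2, eIF3, eIF5A and start codon groups lie left of the blue ones for most genes, Eif4g3 lies to the right at 0.73, and Eef1akmt3 is the lowest in UV-RIP at -0.98.

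Eef1b2, Eif5a and Eef1a1 had the lowest log2 fold changes of the elongation factor genes in fRIP. Eef1b2, which reloads eEF1A with GTP, had 131, 155, 170 and 150 CPM in the fRIP IP and 262, 412, 314 and 276 in the input. It had the lowest log2 fold change of all 64 members, -1.04 (SE 0.09, adjusted p = 1.34e-09 by edgeR), and it was the 1 member lower by more than 2-fold (784 of the 22936 genes tested). Eif5a had 226, 261, 312 and 269 CPM in the IP and 440, 650, 569 and 483 in the input. Its groups were apart at -0.996 (SE 0.08), and Eif5a2, its paralog, was at -0.76. Eef1a1, the tRNA-delivering subunit, had 1182, 1463, 1612 and 1442 CPM in the IP and 2020, 3492, 2460 and 2394 in the input. The input of replicate 4 was again the highest, and the groups did not overlap, at -0.84 (SE 0.09, adjusted p = 2.88e-08 by edgeR). Eef2, the translocase, had 768, 964, 1105 and 963 CPM in the IP and 1167, 1309, 1419 and 1393 in the input. All 4 pairs fell, by 0.48 on the log2 scale (SE 0.07), which is within the fold limit.

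None of the remaining members around elongation was depleted or enriched in fRIP. Eef1g and Eef1d, the other subunits of the exchange complex, were at -0.42 and -0.29, and Eef1e1, a part of the multi-tRNA synthetase complex, was at -0.41. Eef1a2, the form of muscle and neurons, had a mean of 2.69 UMIs per library, and its value of 0.74 was past the fold limit but did not pass the test (adjusted p = 0.42 by edgeR). The 4 tested genes of enzymes that modify the elongation factors lay between -0.13 and 0.13, and none passed by adjusted p alone. Among them, Eef2k, the kinase that switches off eEF2, had a log2 fold change of 0.12 (adjusted p = 0.319).

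**Figure D3:**
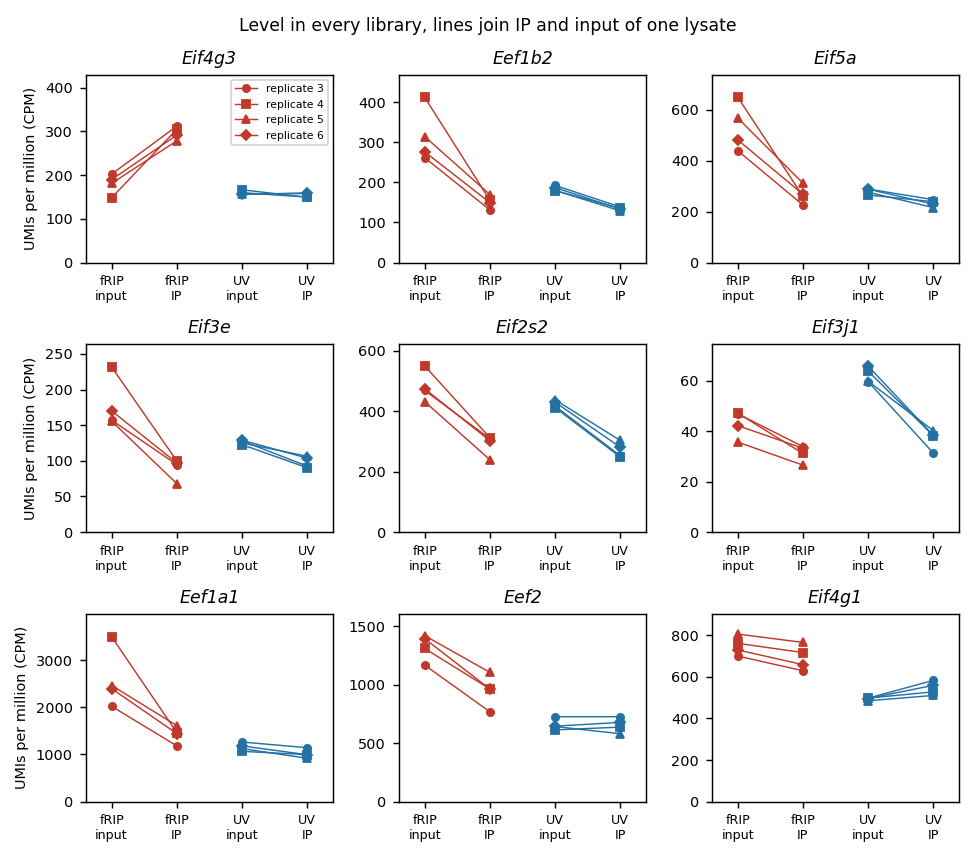
Level in CPM (vertical axis, from 0) of 9 translation factor genes in each library, with input and IP of one lysate joined by a line, in fRIP (red) and UV-RIP (blue). Marker shapes stand for replicates 3 to 6. The fRIP input of replicate 4 is highest for Eef1a1 at 3492 and for Eef1b2 at 412, and lowest for Eif4g3 at 148.

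Under UV light the members' shifts were smaller, and fewer members passed the fold limit. Fewer were depleted over all genes tested too, 1268 in UV-RIP against 2448 in fRIP. By the same rule, 4 of the 64 members were depleted in UV-RIP, a share near the 5.53% of all genes tested. The median was -0.24, against -0.17 for all genes tested. No member was enriched in edgeR (0.68% of all genes tested), nor in DESeq2. At an unadjusted p below 0.05, 3 members were higher, and the same number at an adjusted p below 0.05 (1514 of the 22936 genes tested): Eef2k (0.23), Eif2ak3 (0.15) and Eif4g1 (0.14). By adjusted p alone 43 were lower (29.0% of all genes tested). Of the 10208 genes averaging at least 100 UMIs, 635 were depleted and 5490 were lower by adjusted p alone. UV-RIP libraries varied less than fRIP libraries, with a common dispersion of 0.00124 against 0.009, so smaller shifts passed the test. Under TMM scaling the UV-RIP median was 0.01 over all genes, in place of -0.17, and -0.06 over the members, and 1 member stayed depleted, Eef1akmt3 (1.85% of all genes tested). When library sizes excluded Gm26917 and Gm42418, 2 were depleted (2.2% of all genes tested).

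The 4 depleted members in UV-RIP came from 3 roles. Eef1akmt3, a methyltransferase of eEF1A, had 0.914, 1.29, 1.52 and 2.08 CPM in the UV-RIP IP of replicates 3, 4, 5 and 6, and 2.65, 3.44, 1.82 and 3.76 in their inputs. These values rest on 13 to 36 UMIs in the IP and 24 to 52 in the input, and the groups overlapped although each pair fell, at -0.98 (SE 0.18, adjusted p = 8.36e-07 by edgeR). Eif3j1, a loosely bound subunit of eIF3, had 31.4, 38.2, 40.3 and 38.4 CPM in the UV-RIP IP and 59.7, 63.9, 59.9 and 65.9 in the input. These groups were well apart, at -0.75 (SE 0.05, adjusted p = 1.13e-46 by edgeR). Eif2s2 had 253, 248, 303 and 281 CPM in the IP and 417, 412, 438 and 430 in the input, with no overlap and a log2 fold change of -0.65 (SE 0.04). Eif2s3y had 12.2, 10.4, 11.2 and 11.9 CPM in the IP and 17, 17.8, 17 and 17 in the input. It lay just past the limit at -0.59 (SE 0.08), and without UV-RIP replicate 4 it was at -0.53, within the limit. Eif2s2 and Eif2s3y were the 2 members depleted under both crosslinkers. The UV-RIP calls of both were lost under TMM scaling, without Gm26917 and Gm42418, under median-of-ratios scaling and with a gene-length trend removed, and then no member was depleted under both.

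Most of the members depleted in fRIP stayed within the fold limit under UV light, where the median over all genes tested was -0.17. Eef1b2 had 139, 135, 129 and 134 CPM in the UV-RIP IP and 192, 180, 180 and 187 in the input, which did not overlap, at -0.46. For Eif5a the IP held 247, 240, 216 and 230 CPM and the input 289, 266, 277 and 289, at -0.27. Eif3e was at 92.5, 90.3, 106 and 104 CPM in the IP and 128, 123, 125 and 129 in the input, at -0.36. All 3 were lower in every pair within the fold limit. Eif1ax had 31.1, 28.3, 26.9 and 28.6 CPM in the IP and 39.2, 39.4, 41.0 and 37.0 in the input, at -0.45. The values of Eif2s1 were 74.8, 74.9, 85.1 and 86.0 CPM in the IP and 105, 105, 109 and 106 in the input, at -0.40. Eif3a had 290, 257, 292 and 302 CPM in the IP and 393, 412, 381 and 397 in the input, at -0.47. In these 3 genes too, the groups were apart.

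Other members moved less in UV-RIP. Their values stand beside a median of -0.17 over all genes tested, which became 0.005 under TMM scaling. Eef1a1 had 1143, 997, 918 and 994 CPM in the UV-RIP IP and 1263, 1066, 1125 and 1182 in the input, which overlapped, at -0.20 (adjusted p = 2.77e-07 by edgeR). Eef2 had 726, 637, 581 and 677 CPM in the IP and 726, 613, 642 and 645 in the input. The IP was higher in 3 of 4 pairs, and the log2 fold change of -0.01 (SE 0.04) did not pass the test (adjusted p = 0.954 by edgeR). Eif4a1 had 304, 279, 270 and 269 CPM in the IP and 336, 290, 310 and 331 in the input, at -0.17 with overlap. Eif1 had 66.7, 62.1, 62.4 and 58.4 CPM in the IP and 76.3, 67.9, 72.3 and 72.5 in the input, at -0.21 without overlap. Eif4g1 went the other way, with 583, 528, 511 and 559 CPM in the IP and 498, 498, 485 and 496 in the input. Its groups did not overlap, and it was higher in 4 of 4 pairs, at 0.14 (SE 0.04, adjusted p = 0.000691 by edgeR). Eif4g3, enriched in fRIP, had 150, 149, 158 and 159 CPM in the UV-RIP IP and 160, 166, 157 and 156 in the input, which overlapped, at -0.05 (SE 0.04, adjusted p = 0.382 by edgeR).

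The next comparison asks whether the IP to input ratio differed between the crosslinkers, by an interaction term over all 16 libraries in edgeR with no fold limit. The difference is the fRIP log2 fold change minus that of UV-RIP. It was lower in fRIP for 31 members (8.07% of all genes tested) and higher in fRIP for 7 (18.6% of all genes tested), with a median of -0.27, against 0.14 for all genes tested. Of the 10208 genes averaging at least 100 UMIs, 1623 were lower and 3525 higher. Of the 24 members depleted in fRIP, 18 passed this test as lower and 6 did not. The difference contains the fRIP fold change, so these counts describe the members and are no separate evidence. The differences were lowest for Eif5a (-0.73, SE 0.09), Eef1a1 (-0.65), Eif4a1 (-0.64), Eif3e (-0.62) and Eif1 (-0.60). By role, 11 of the 14 eIF3 genes, 4 of the 5 eIF2B genes and 5 of the 7 start codon genes were lower in fRIP. The count of higher members was 4 under TMM scaling, 4 without Gm26917 and Gm42418 and 2 in DESeq2 under median-of-ratios scaling, which gave no adjusted p for Eef1akmt3. Over all genes tested, the count also fell under these settings, from 4264 to 3062, 2863 and 2138. Without the same loci the count of lower members was 41, and over all genes tested the share with a lower difference was then 12.9% and that with a higher one 12.5%.

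The 7 members with a higher difference were Eef1akmt3 (1.12, SE 0.30), Eif4g3 (0.78), Eif4e (0.39), Eif2ak4 (0.36), Eif2ak2 (0.34), Eif3j1 (0.29) and Eif4h (0.21). For Eef1akmt3 the fRIP IP libraries held 2.43, 1.60, 1.84 and 1.72 CPM and the fRIP inputs 2.08, 1.55, 1.08 and 2.27, which overlapped. Eif3j1 had 34.0, 31.2, 26.6 and 33.3 CPM in the fRIP IP and 46.9, 47.2, 35.8 and 42.3 in the input, at -0.46 and without overlap. The difference for Eif3j1 did not pass under TMM scaling (0.17), without Gm26917 and Gm42418, under median-of-ratios scaling, without the replicate block or with a gene-length trend removed. It also failed without fRIP replicate 3 (adjusted p = 0.054 by edgeR) or 6, and without UV-RIP replicate 3, 4 or 6. That for Eif4h failed under the same 5 settings, with no count filter, and in 6 of the 8 fits that left out a replicate, all but those without fRIP replicate 4 or 5. Eif4e was level in fRIP and lower under UV light, with 72.1, 70.7, 82.4 and 77.9 CPM in the UV-RIP IP and 102, 99.9, 107 and 102 in the input. Its UV-RIP groups did not overlap, at -0.44 (adjusted p = 3.59e-21 by edgeR). Eif2ak2 had 58.3, 61.1, 47.0 and 60.6 CPM in the fRIP IP and 67.3, 56.5, 59.2 and 68.2 in the input, which overlapped. In UV-RIP it had 58.1, 53.0, 54.5 and 58.5 CPM in the IP and 78.0, 79.4, 78.7 and 79.0 in the input, well apart, at -0.49. Its difference did not pass under TMM scaling (0.23, adjusted p = 0.0614 by edgeR), without Gm26917 and Gm42418 (0.21), under median-of-ratios scaling or with a gene-length trend removed (both 0.20). That of Eif2ak4 did not pass under median-of-ratios scaling (0.22) or with the length trend removed (0.03). Eif2ak4 had 83.8, 76.1, 83.1 and 81.4 CPM in the UV-RIP IP and 87.2, 82.2, 83.6 and 81.3 in the input, which overlapped.

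The inputs themselves differed. Between the fRIP input and the UV-RIP input, 25 members were higher in fRIP (10.6% of all genes tested) and 1, Eef1akmt3, was lower (9.44% of all genes tested), at a fold above 1.5 and an adjusted p below 0.05 in edgeR. The call for Eef1akmt3 (-0.74) did not hold without fRIP replicate 5 (-0.57) or without UV-RIP replicate 3 (-0.78), 4 (-0.65) or 6 (-0.58). The median was 0.50, against 0.03 for all genes tested. Of the 10208 genes averaging at least 100 UMIs, 1363 were higher and 786 lower. Without Gm26917 and Gm42418, 17 members were higher (8% of all genes tested) and their median was 0.40. Eef1a1 (1.16), Eif3c (1.13) and Eef2 (1.01) were called at a fold above 2 (1006 of the 22936 genes tested), and Eif4g2 was at 0.99. Of the 31 members with a lower difference, 21 were also higher in the fRIP input. Both comparisons contain the same input libraries, so the count describes the members and is no separate evidence. The levels of Eef2 in the 4 groups illustrate this, with means of 950 ± 138 CPM in the fRIP IP, 1322 ± 113 in the fRIP input, 655 ± 61.7 in the UV-RIP IP and 657 ± 48.5 in the UV-RIP input (SD, n = 4 each). Those of Eif4g3 were 297 ± 14.8, 180 ± 23.1, 154 ± 5.21 and 160 ± 4.78 CPM in the same order (SD, n = 4 each), so for this gene the fRIP IP was the group that stood apart. The input comparison has no pairs, as the plates differ, and without fRIP replicate 4 it gave 20 higher members.

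The fRIP fold change of the members went with the length of the gene body. Across 61 members averaging at least 10 UMIs, Pearson's r of the log2 fold change in fRIP with log2 length was 0.60 and Spearman's rho 0.49, and across 15131 genes these were 0.47 and 0.46. In UV-RIP the members had an r of 0.10 and a rho of 0.02. These correlations are across genes of the same libraries, which are not independent replicates. In fRIP, 10 of the 16 members shorter than 10 kb were depleted, with a median of -0.66, beside 35.8% of all genes of that length, with a median of -0.41. Of the 20 members from 10 to 20 kb, 7 were depleted (16% of all genes of that length), and of the 11 from 20 to 30 kb, 4 were (10.8%). Among the 14 members of 30 kb or more, 2 were depleted and 1 was enriched, beside 3.12% and 19.6% of all genes of that length. Their median was -0.05, against 0.19 for all genes of that length. The members' medians were thus below those of all genes in each of the 4 length classes in fRIP. In UV-RIP their medians ran from -0.34 to -0.19 and those of all genes from -0.22 to -0.13. Below 10 kb the members' median of -0.195 was above the -0.223 of all genes, and 0 of 16 were depleted, beside 13.3%. In the longer classes the members' medians were the lower ones.

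With a trend of fold change on length removed over all genes, 15 members were depleted in fRIP (5.42% of all genes tested) and their median was -0.26. Of these, 14 were depleted before, and Eif5b was added. The 10 members that no longer passed were Eif1, Eif1b, Eif2b1, Eif3f, Eif3g, Eif3i, Eif3j2, Eif4a1, Eif4g2 and Eif6. Eif4g3 was at 0.31 after this step and was no longer enriched. All 4 genes of the eIF2 subunits, Eif3e, Eif3m, Eif3k and Eif3a, Eif1ax, Eif2a, Eif5a and Eif5a2, and Eef1a1 and Eef1b2 stayed depleted. What makes fold change follow length was not tested.

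**Figure D4:**
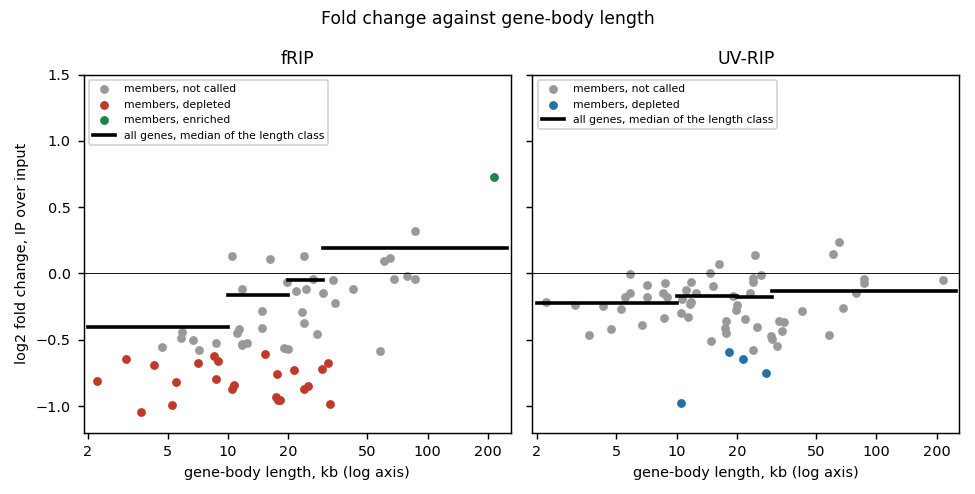
Log2 fold change of IP over input (vertical axis) against gene-body length in kb (log axis) for 61 translation factor genes, in fRIP on the left and UV-RIP on the right. Coloured points are depleted or enriched members, and black bars are the medians of all genes in 4 length classes. In fRIP the points rise with length up to Eif4g3 at 215 kb, and in UV-RIP they do not.

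Other genes of the translation pathway were read from lists by function. The list counts stand beside shares of all genes tested of 10.7% depleted in fRIP, 5.53% depleted in UV-RIP, 8.07% with a lower difference and 10.6% higher in the fRIP input. A count of 1 of 7 or 1 of 8 is near the first of these. In fRIP, 6 of the 22 genes on the aminoacyl-tRNA synthetase list were depleted, and the median was -0.47. This list also holds Aimp1 and Aimp2, which do not encode synthetases. Nars was lowest at -0.75, followed by Tars at -0.70, and Cars (0.19) and Vars (0.14) were highest. For 15 of the 22 the ratio was lower in fRIP than in UV-RIP, and 15 were higher in the fRIP input. Of the 10 tested genes for termination and recycling, 4 were depleted, with Mcts1 (-1.07), a partner of Denr, and Abce1 (-0.87), the recycling ATPase, at the low end and Hbs1l (0.12) and Mrrf (0.10) at the high end. Of 12 genes for poly(A) binding and scanning, 4 were depleted, from Ddx3x (-1.10), a helicase that helps scanning, and Pdcd4 (-0.71), an inhibitor of eIF4A, up to Larp4b (0.07) and Larp1 (0.17), which binds TOP mRNAs.

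The signalling list had a positive median. Among 12 genes of mTOR and MNK signalling the fRIP median was 0.25, and 1 was enriched (8.8% of all genes tested), Rptor (0.87), the Raptor subunit of mTOR complex 1. By adjusted p alone 7 of the 12 were higher (4036 of the 22936 genes tested) and 1, Rps6kb1 (-0.33), was lower. Mtor itself was at 0.43, and Mlst8 at -0.02. The gene bodies of Rptor, Deptor (0.29) and Mtor are 297, 147 and 109 kb long, and that of Mlst8 is 5.53 kb. In the integrated stress response, which acts through eIF2, 2 of 9 genes were depleted, Atf4 (-0.71) and Ppp1r15b (-0.63), and the highest were Gcn1l1 (0.48) and Ddit3 (-0.02). In the list for hypusine and diphthamide, the modifications of eIF5A and eEF2, 1 of 8 was depleted, Dph3 (-1.02), beside Dph2 (-0.34), Dph5 (0.07) and Dph6 (0.24). Of the 7 mitochondrial translation factors, 1 was depleted, Mtif2 (-0.60), with Guf1 at -0.47, Gfm1 at -0.12 and Mtif3 at 0.04. Of the 9 members of the TOP class, 4 were depleted and 8 were lower by adjusted p alone, with a median of -0.48 from Eef1b2 and Eif3e at the low end to Eef1d and Eif3h at the high end, which is near the median of all 64 members.

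In UV-RIP, 1 of the 10 genes for termination and recycling was depleted, Mcts1 (-0.92), as were 1 of the 8 for hypusine and diphthamide, Dph3 (-0.70), and 1 of the 12 for poly(A) binding and scanning, Paip2 (-0.65), which takes poly(A)-binding protein off the tail. These are 3 of the 80 tested genes on the lists outside the members (3.75%), a share below the 5.53% of all genes tested, and in fRIP 18 of the 80 were depleted (22.5%), beside 10.7%. The UV-RIP medians of the 8 lists lay between -0.30 for termination and recycling and 0.09 for mTOR and MNK signalling.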

How the data were processed

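Alignment was done by the authors with STAR on mm10 (per the labels), and multi-mapped reads were dropped. They deposited raw UMI counts, obtained with featureCounts over whole gene bodies of GENCODE vM16. Versions and the strand setting are not given in the sources used here. Each of the 16 count columns was tied to its library by title. The deposited length column gives bases of the gene body.

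The quasi-likelihood test of edgeR 4.0.16 (R 4.3.3) was run on 22936 genes that reached 3 UMIs in some library. Total UMIs were the library sizes, the replicate number was a block within a crosslinker, and the plate was a block in the interaction. Adjusted p is by Benjamini-Hochberg over all genes tested, and an enriched or depleted gene passed a fold of 1.5 and an adjusted p of 0.05. The study's methods use total UMIs and the replicate in DESeq2, and DESeq2 1.42.0 served for alternatives here. Fits were tested on simulated data. Levels are CPM without a pseudocount. Depth was 12456298 to 21211537 UMIs per library, and UMIs cover counting error only.

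IP and input of one number share a lysate by the study's methods. The deviations of such pairs from their group means correlated at 0.114 to 0.595 in fRIP and 0.028 to 0.435 in UV-RIP. The lowest chi-square per degree of freedom between replicates of a group was 1.72, so every library was counted on its own. Coordinates are from GENCODE vM21 on GRCm38 for the 56 members whose identifier and version matched.

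The members, role groups and pathway lists were chosen with earlier results of these data known. Values in every library are given for called members of fRIP, UV-RIP and the difference, but not of the input comparison. In each, these were up to 5 enriched or higher members with the largest log2 fold change and up to 5 depleted or lower ones with the smallest. They had a mean of 10 or more UMIs and the same direction in all 4 pairs (not required for the difference). Such values are also given for Eef1a1, Eef2, Eif4e, Eif4a1, Eif4g1, Eif2s1, Eif3a and Eif5a. From the pathway lists, genes depleted in UV-RIP and the 2 highest and 2 lowest in fRIP are named. Alternatives were other scalings, filters, thresholds and fits, each replicate left out, and a gene-length trend removed.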

Additional observations from a re-analysis of the deposited data

Results flagged for a closer look

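In fRIP the log2 IP to input ratio of Eif4g3 reached 1.04 in replicate 4, while the other pairs gave 0.62 to 0.63, a value far from the others. It was the 1 such group among 42 groups of 4 values, and chance gives about 1 in 20. The input of that replicate held 148 CPM of Eif4g3 against 181 to 202 in the other inputs, and the same library has 2.81% of its UMIs on miscellaneous RNA. Its part in the ratio was not tested, and Eif4g3 was enriched with each fRIP replicate left out in turn.

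The IP to input ratio differed between the crosslinkers, by the edgeR interaction test, for 31 members as lower and 7 as higher in fRIP. The values given are of the 5 highest, the 5 lowest and the core factors. In log2, fRIP minus UV-RIP, the difference was 1.12 for Eef1akmt3, 0.78 for Eif4g3, 0.39 for Eif4e, 0.36 for Eif2ak4 and 0.34 for Eif2ak2. It was -0.73 for Eif5a, -0.65 for Eef1a1, -0.64 for Eif4a1, -0.62 for Eif3e and -0.60 for Eif1. Among the members chosen as core factors it was -0.48 for Eef2, -0.45 for Eif2s1, -0.26 for Eif4g1 and -0.25 for Eif3a. Eef1b2 (-0.58), Eif1ax (-0.51), Eif2s3y (-0.36) and Eif3j1 (0.29) are among the others that passed. The values for Eif2ak2 and Eif2ak4 were not past the threshold under median-of-ratios scaling or with a gene-length trend removed, and that for Eif2ak2 also not under TMM scaling or without Gm26917 and Gm42418. The value for Eif4g1 was not past the threshold without UV-RIP replicate 3 (-0.23), and that for Eif3a was not without any 1 of fRIP replicates 3 and 6 and UV-RIP replicates 3, 5 and 6 (-0.24 to -0.21). That for Eif2s3y was not past it in DESeq2 with total UMIs (-0.365), with no replicate block (-0.353), without fRIP replicate 5 (-0.258) or without UV-RIP replicate 3, 5 or 6 (-0.368 to -0.326). That for Eif3j1 was not past it under TMM scaling and 9 other settings. Crosslinker and plates cannot be told apart in these values.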

How the results depend on the processing

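In fRIP the depleted members numbered 24 and became 44 with no fold threshold, 1 with a fold above 2 and 15 with the gene-length trend removed, where the median moved from -0.52 to -0.261. Of all 22936 genes tested, 2448, 5018, 784 and 1242 were depleted in the same order. With a fold above 2 the share of the members was thus below that of all genes. The 1 enriched member became 2, 0 and 0 under the same 3 settings, beside 4036, 607 and 2063 of all genes tested. With each replicate left out, 24 to 27 were depleted. In UV-RIP the 4 depleted members became 43 with no fold threshold, 0 with a fold above 2, 1 under TMM scaling, 2 without Gm26917 and Gm42418, 1 in DESeq2 under median-of-ratios scaling and 1 with the gene-length trend removed. Over all genes tested, the 1268 depleted became 6640, 223, 425, 505, 233 and 374 in the same order. With no fold threshold 3 were enriched (1514 of the 22936 genes tested). The UV-RIP median was -0.056 under TMM scaling, -0.083 without Gm26917 and Gm42418, -0.065 with median-of-ratios and -0.026 with the length trend removed.

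The 7 members with a higher difference became 4 under TMM scaling, 4 without Gm26917 and Gm42418, 2 with median-of-ratios and 3 with the length trend removed, and the median difference was -0.39, -0.407 and -0.419 under the first 3 of these. Over all genes tested, the higher ones also fell, from 4264 to 3062, 2863, 2138 and 2059. In the inputs the 25 higher members became 45 with no fold threshold, 3 with a fold above 2 and 13 with the length trend removed. Over all 22936 genes tested, the 2427 higher became 4634, 1006 and 1493. With a fold above 2 the share of the members was thus near that of all genes. The 1 lower member became 4 with no fold threshold, 0 with a fold above 2, 2 without the Gm loci and 2 with the length trend removed, and 0 to 2 with a replicate left out (0 without fRIP replicate 5, UV-RIP replicate 3 or UV-RIP replicate 4, and 2 without fRIP replicate 6). Over all genes tested, the lower ones numbered 3890, 1035, 2780 and 2423 under the first 4 of these settings. Without the replicate block, 24 members were depleted in fRIP and 4 in UV-RIP. The lower differences went from 31 to 22 and the higher ones from 7 to 5, and Eif2s3y, Eif3a and Eif4g1 were among those lost. Among the members named by the rule, no called value changed its sign under the alternatives run. Values called in neither fit changed sign 16 times in UV-RIP, 2 times in fRIP and 2 times in the inputs. The cause of these changes was not tested, except that a threshold acts on the same fits.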
